A study of Homo sapiens with 12 samples.

Results

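The genes described here are the transcription factors FOXO1 and FOXO3 and 8 genes that FOXO factors are known to switch on: KLHL24, TXNIP, FBXO32, CCNG2, CITED2, BCL6, SOD2 and CAT. They were measured in HK-2 cells, an immortalised epithelial line derived from the proximal tubule of the human kidney, after exposure to a compound that the labels call Ra or to its vehicle. Ra cells at 12 h, control cells at 12 h, Ra cells at 48 h and control cells at 48 h were each sampled 3 times, and the labels call the samples biological replicates. All 12 cultures were grown in a medium that holds insulin, EGF, transferrin, selenite and hydrocortisone, and treatment began one day after seeding, when the cells nearly covered the plate. The sources used here give neither the identity nor the dose of Ra, and the wider study looks for expression signatures of toxicity to kidney cells. The 10 genes are 10 of the 19775 genes with a probe set annotated to 1 symbol on the Affymetrix arrays. They hold 37 such probe sets, of which each gene is represented by the brightest on average. Of the 10 genes 9 reached 5 log2 units on at least 3 arrays and entered the tests of 10050 genes, while FOXO1 did not. The 10 genes were chosen by name, with results of these arrays known, among them the higher KLHL24 level with Ra at 12 h. Differences of KLHL24 are therefore given as a description with no p-value. Counts of genes past a test include it where they are out of 9, and no such count is used as support.

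FOXO proteins are forkhead transcription factors held in check by insulin and growth factor signals. Those signals act through PI3 kinase and AKT, which phosphorylates FOXO so that 14-3-3 proteins bind it and keep it in the cytoplasm. When the signal weakens, FOXO enters the nucleus and switches on genes for cell cycle arrest, protein breakdown, autophagy and protection from oxidants. In the kidney tubule, FOXO3 is best known from work on oxygen shortage and oxidative stress. The arrays measured mRNA, so neither the phosphorylation nor the location of the FOXO proteins was observed.

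Values are GCRMA log2 expression values, in which 1 unit is a doubling, and an array's probe set levels are compared between samples but not between genes. Replicates scattered little at 12 h, where the median SD of a gene was 0.12 log2 units in Ra cells and 0.12 in control cells, and more at 48 h, where it was 0.43 in Ra cells and 0.22 in control cells. Ra 48 h replicate 2 stood apart. Its median over the tested genes was 7.95 log2 units, against 8.66 to 8.79 on the other 11 arrays. For the FOXO factor and target genes past the filter, Ra minus control at 48 h is given with and without it. Other results that include it are given without it only where stated. GAPDH and ACTB differed between Ra and control by 0.05 ± 0.04 and -0.07 ± 0.04 log2 units at 12 h, and by -0.04 ± 0.12 and 0.07 ± 0.12 at 48 h (SE). Of the proximal tubule markers on the arrays, 4 of 14 passed the filter, and LRP2, CUBN, SLC34A1, SLC5A2 and AQP1 were among the 10 that did not. All 8 epithelial keratin and cadherin genes passed, as did 3 of 7 fibroblast markers, 0 of 7 endothelial markers, 0 of 5 immune markers and 0 of 6 markers of podocytes and the distal nephron. Of these markers EPCAM rose by 0.34 ± 0.07 and PAX8 fell by 0.46 with Ra at 12 h, 0 passed at 48 h, and in control cells NT5E (-1.74), CDH2 (-0.81), CDH16 (0.64), KRT8 (-0.58) and EPCAM (0.57) changed between 12 h and 48 h. In bulk samples, fewer cells that express a gene and less of its mRNA per cell cannot be told apart.

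Promoters are shown for TXNIP, whose level varied most over the samples, for KLHL24, whose 12 h difference was known when the genes were chosen, and for CCNG2, whose 12 h difference had the smallest SE of the 9. RefSeq promoter windows (GRCh38.p14, 250 bases before to 50 after a transcript start) matched 9 of the 10 genes, in 19 windows. The forkhead element GTAAACA, sought on both strands, occurs in 3.42% of 35116 RefSeq promoter windows and in 1 of the 19. That window is the first of TXNIP, at chr1:145996530-145996829 on the minus strand, where the element begins at position -124 from the start.
TXNIP: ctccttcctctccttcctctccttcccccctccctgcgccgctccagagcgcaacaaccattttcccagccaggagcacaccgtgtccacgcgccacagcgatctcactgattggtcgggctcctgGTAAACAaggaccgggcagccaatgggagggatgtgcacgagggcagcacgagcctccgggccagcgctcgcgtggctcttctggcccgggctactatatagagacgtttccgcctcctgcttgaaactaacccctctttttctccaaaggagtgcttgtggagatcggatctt
KLHL24: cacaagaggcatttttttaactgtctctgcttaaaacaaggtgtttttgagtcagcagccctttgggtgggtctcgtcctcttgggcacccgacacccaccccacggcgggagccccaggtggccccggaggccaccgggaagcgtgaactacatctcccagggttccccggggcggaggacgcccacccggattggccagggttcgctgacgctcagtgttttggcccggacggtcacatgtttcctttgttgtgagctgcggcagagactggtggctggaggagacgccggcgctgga
CCNG2: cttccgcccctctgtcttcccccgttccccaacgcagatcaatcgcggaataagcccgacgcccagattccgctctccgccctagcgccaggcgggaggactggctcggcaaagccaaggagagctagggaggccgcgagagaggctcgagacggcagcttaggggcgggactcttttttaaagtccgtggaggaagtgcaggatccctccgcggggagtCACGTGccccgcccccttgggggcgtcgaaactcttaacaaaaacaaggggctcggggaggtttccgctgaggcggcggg
Each window is printed in the direction of transcription, and capitals mark a motif match. The KLHL24 window lies at chr3:183635373-183635672 on the plus strand and holds neither motif. The CCNG2 window, at chr4:77156957-77157256 on the plus strand, holds the E-box CACGTG at position -30. That palindrome, a binding sequence of many helix-loop-helix factors, occurs in 7.26% of all windows and in 2 of the 19, the other being in CITED2. The forkhead and E-box letters do not overlap, and a match describes the sequence only.

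FOXO1, a main carrier of insulin's effect on liver glucose output, was at the floor of the arrays. Its brightest probe set read 2.83, 2.79 and 2.84 log2 units in Ra cells and 2.83, 2.84 and 2.93 in control cells at 12 h, and at 48 h it read 2.84, 2.89 and 2.81 in Ra cells and 2.96, 3.14 and 2.84 in control cells. All 12 values lie within the range where GCRMA's background model sets the level, and the other FOXO1 probe sets were lower still. With no filter, limma's fit of 19775 genes gave Ra minus control as -0.05 ± 0.03 log2 units at 12 h (SE, adjusted p = 0.658) and as -0.13 ± 0.08 at 48 h (adjusted p = 0.740). A change in FOXO1 mRNA was not detectable at this signal.

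FOXO3, the stress-linked FOXO factor, was well above background in every sample. It read 10.56, 10.48 and 10.38 log2 units in Ra cells at 12 h, against 10.36, 10.19 and 10.30 in control cells. The groups did not overlap, yet the difference of 0.19 ± 0.08 (SE) did not pass limma's test (adjusted p = 0.169). The other 2 probe sets past the filter gave 0.16 and -0.05, and 3 that also carry the symbol FOXO3B were not used. At 48 h the values were 10.55, 10.10 and 10.49 in Ra cells and 10.52, 10.74 and 10.63 in control cells, a difference of -0.25 ± 0.23 with a 95% interval from -0.77 to 0.27 (limma adjusted p = 0.580), or -0.11 without Ra 48 h replicate 2. Among control cells FOXO3 rose between the times by 0.34 ± 0.11 (limma adjusted p = 0.0470), and this call was lost in the fit of all 12 arrays (0.140). The other 2 probe sets past the filter gave 0.27 and 0.11 for that change, and -0.34 and -0.42 for Ra minus control at 48 h. Of the related factors, FOXO4 differed by -0.12 ± 0.15 at 12 h and by -0.29 ± 0.30 at 48 h, and passed no comparison. FOXO6, known mainly from brain, read 7.70, 3.91 and 6.89 in Ra cells and 9.95, 8.98 and 6.50 in control cells at 48 h on a probe set of a type that can cross-hybridise, and it too passed no comparison.

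**Figure D1:**
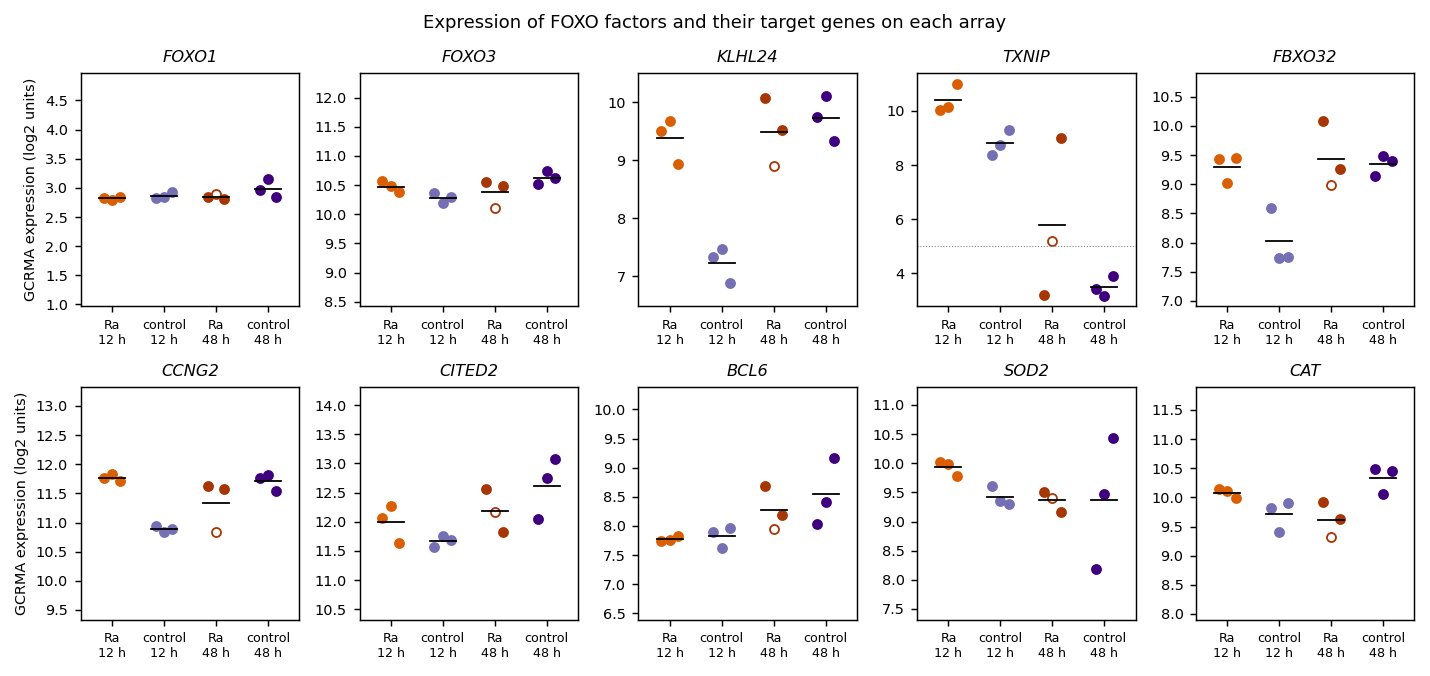
GCRMA log2 expression of the 10 genes on each of the 12 arrays, each panel on its own vertical axis. Each point is 1 array, the open circle is Ra 48 h replicate 2, black bars are group means and the dotted line is the filter at 5 log2 units. FOXO3, KLHL24, TXNIP, FBXO32, CCNG2, SOD2 and CAT lie higher in all Ra arrays than in all control arrays at 12 h. The 12 h groups did not overlap for 35.3% of all genes. TXNIP is the 1 gene of the 9 measured that lies under 5 on all 3 control arrays at 48 h.

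KLHL24, a substrate adaptor of a cullin-3 ubiquitin ligase that targets intermediate filament proteins, had the largest early difference of the 9 measured genes. At 12 h it read 9.50, 9.69 and 8.94 log2 units in Ra cells, against 7.32, 7.48 and 6.88 in control cells, and no Ra array was as low as a control array. The difference was 2.15 ± 0.22 log2 units (SE), a ratio of 4.44. At 48 h the groups overlapped: Ra cells read 10.07, 8.90 and 9.52 and control cells 9.75, 10.10 and 9.33, a difference of -0.23 ± 0.36, or 0.07 without Ra 48 h replicate 2. In control cells the KLHL24 level was 2.50 ± 0.24 higher at 48 h than at 12 h. In Ra cells the later level differed from the earlier one by 0.12 ± 0.34, or by 0.42 without Ra 48 h replicate 2.

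The probe sets of KLHL24 did not all show this pattern. The third and the fourth by brightness gave 2.25 and 1.97 log2 units for Ra minus control at 12 h and 2.56 and 2.35 for control 48 h minus control 12 h. The dimmest gave 1.33 and 1.89, with 1 array at 5 log2 units or more. For Ra minus control at 48 h the third and the fourth gave -0.82 each and the dimmest -1.20. The brightest gave -0.23 there and the second by brightness -0.17. The second by brightness, of the x type that can cross-hybridise, read 8.29, 8.44 and 8.40 in Ra cells and 8.38, 8.51 and 8.09 in control cells at 12 h, and its groups overlapped. Which transcripts it detects was not tested.

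FBXO32, also called atrogin-1, is the F-box protein of a ubiquitin ligase that rises in wasting muscle. It read 9.44, 9.02 and 9.44 log2 units in Ra cells at 12 h, against 8.59, 7.73 and 7.76 in control cells. It rose with Ra by 1.28 ± 0.24 (SE, limma adjusted p = 0.0181), a ratio of 2.42. At 48 h Ra cells read 10.08, 8.98 and 9.26 and control cells 9.14, 9.49 and 9.39, so that the groups overlapped and differed by 0.10 ± 0.33 (limma adjusted p = 0.892), or by 0.33 without Ra 48 h replicate 2. The control cells had risen by 1.31 ± 0.25 between the times (limma adjusted p = 0.0102). The other FBXO32 probe set past the filter also gave 1.28 with Ra at 12 h, but it gave -0.53 at 48 h and 0.16 for the change with time in control cells.

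TXNIP encodes a protein that binds thioredoxin and restrains glucose uptake. At 12 h it read 10.02, 10.15 and 10.99 log2 units in Ra cells, against 8.36, 8.76 and 9.31 in control cells. In both groups replicate 3 was the highest, and no control array reached the lowest Ra array. TXNIP rose with Ra by 1.58 ± 0.30 (SE, limma adjusted p = 0.0196), a ratio of 2.99. Blocking on replicate number, a pairing read from these arrays and not stated by the labels, gave an SE of 0.09 (limma adjusted p = 0.000772). The fit of all 12 arrays gave a limma adjusted p of 0.796. The other 2 probe sets gave 1.74 and 1.55.

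At 48 h the TXNIP signal in control cells was near the floor of the arrays. Control arrays read 3.41, 3.17 and 3.89 log2 units, all under 5, while Ra arrays read 3.19, 5.21 and 9.00. The 3 Ra samples thus disagreed widely, with an SD of 2.95, and replicate 3 was the highest. The other 2 probe sets put replicate 3 at 8.25 and 8.21 but replicate 2 at 2.99 and 3.15, near the floor. Ra minus control was 2.31 ± 1.19 with a 95% interval from -0.41 to 5.02 (limma adjusted p = 0.339), or 2.60 without Ra 48 h replicate 2. Without Ra 48 h replicate 3 it was 0.71 (adjusted p = 0.533), and without replicate 1 it was 3.61 (adjusted p = 0.111). In control cells TXNIP fell by 5.32 between the times, with an SE of 0.29 (limma adjusted p = 0.00105). The size of that fall depends on GCRMA's background model, because the 48 h level is under 5. In Ra cells the change with time was -4.59 ± 1.21, which did not pass (limma adjusted p = 0.584), although the 3 Ra arrays at 48 h all lay below the 3 at 12 h.

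**Figure D2:**
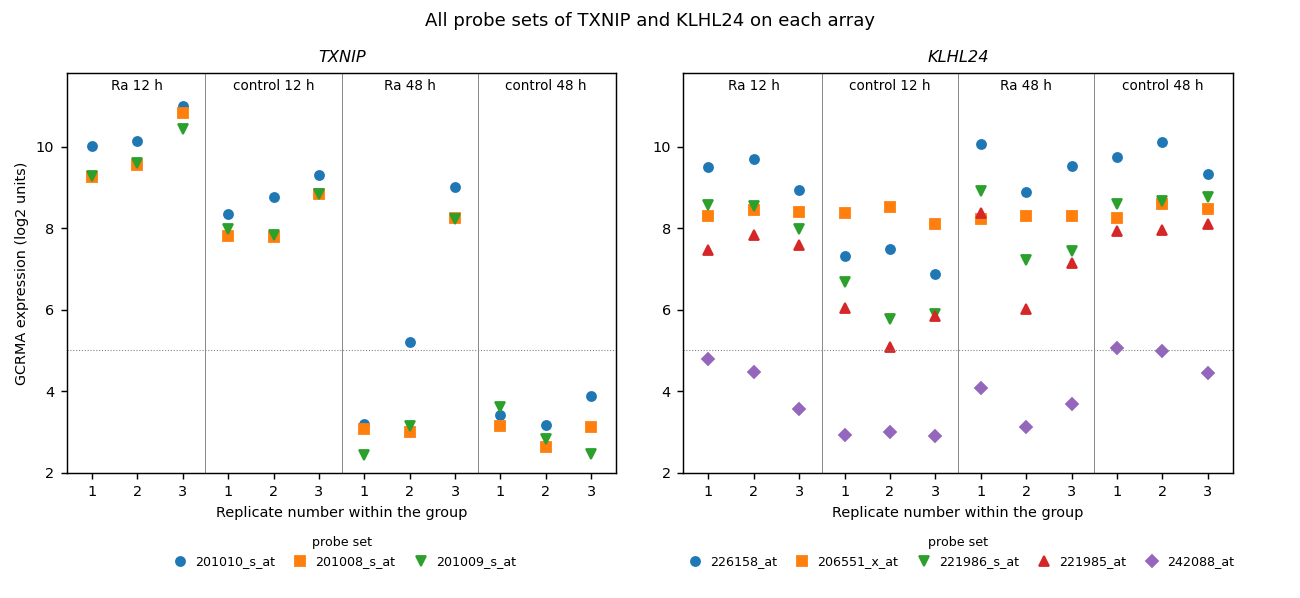
GCRMA log2 expression of every probe set of TXNIP (left) and KLHL24 (right), with arrays along the horizontal axis by group and replicate number and the filter at 5 log2 units as a dotted line. The 3 TXNIP probe sets put Ra 48 h replicate 3 between 8.21 and 9.00, above the other Ra 48 h arrays, and differ on replicate 2, which reads 5.21 on the brightest and 2.99 and 3.15 on the others. For KLHL24 the x-type probe set (squares) stays between 8.09 and 8.59 while the others differ between the 12 h groups.

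CCNG2, an unusual cyclin that slows the cell cycle, gave the most precise early rise. It read 11.77, 11.83 and 11.71 log2 units in Ra cells at 12 h, against 10.94, 10.84 and 10.89 in control cells, and the spread within each group was under 0.07 (SD). The rise was 0.88 ± 0.07 (SE, limma adjusted p = 0.00395), a ratio of 1.84, and the other 2 probe sets past the filter gave 0.91 and 0.74. At 48 h Ra cells read 11.62, 10.83 and 11.57 and control cells 11.77, 11.81 and 11.54. The groups overlapped, and the difference of -0.37 ± 0.25 became -0.11 without Ra 48 h replicate 2, the lowest array. Control cells rose by 0.82 ± 0.10 between the times (limma adjusted p = 0.00373).

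CITED2 and BCL6 encode transcriptional regulators, CITED2 a brake on hypoxia-inducible factor and BCL6 a repressor best known from germinal centre B cells. CITED2 read 12.06, 12.27 and 11.63 log2 units in Ra cells at 12 h, against 11.57, 11.75 and 11.68 in control cells. These groups overlapped, and the difference of 0.32 ± 0.15 (SE) did not pass limma's test (adjusted p = 0.197). At 48 h CITED2 read 12.56, 12.17 and 11.83 in Ra cells and 12.05, 12.75 and 13.07 in control cells, a difference of -0.44 ± 0.29, or -0.43 without Ra 48 h replicate 2. The other CITED2 probe set past the filter gave 0.32 at 12 h and -0.20 at 48 h. The brightest CITED2 probe set rose with time in control cells by 0.95 ± 0.24 (limma adjusted p = 0.0250), and the other one gave 0.76. BCL6 read 7.75, 7.75 and 7.83 in Ra cells and 7.89, 7.62 and 7.96 in control cells at 12 h, and Ra minus control was -0.05 ± 0.12 with a 95% interval from -0.32 to 0.22. At 48 h it read 8.68, 7.95 and 8.19 in Ra cells and 8.04, 8.42 and 9.17 in control cells, again overlapping, with a difference of -0.27 ± 0.36, or -0.11 without Ra 48 h replicate 2.

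SOD2 and CAT encode enzymes that clear oxidants, SOD2 the superoxide dismutase of mitochondria and CAT the catalase of peroxisomes. SOD2 read 10.02, 9.98 and 9.79 log2 units in Ra cells at 12 h, against 9.62, 9.35 and 9.30 in control cells, and it rose by 0.51 ± 0.11 (SE, limma adjusted p = 0.0273). This gene rests on 1 probe set, since its other 4 also carry the symbol of an overlapping transcript, SOD2-OT1, and were not used. At 48 h SOD2 read 9.51, 9.41 and 9.17 in Ra cells and 8.19, 9.46 and 10.44 in control cells, and the scatter of the control samples (SD 1.13) left a 95% interval from -1.15 to 1.15. The difference was -0.00 ± 0.50, or -0.02 without Ra 48 h replicate 2.

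CAT was higher with Ra at 12 h and lower at 48 h, without passing limma's test on either set of 6 arrays. At 12 h it read 10.14, 10.11 and 9.99 log2 units in Ra cells and 9.82, 9.41 and 9.90 in control cells, a difference of 0.38 ± 0.13 (SE, adjusted p = 0.0982). At 48 h it read 9.91, 9.32 and 9.63 in Ra cells and 10.49, 10.06 and 10.46 in control cells. Every Ra array was below every control array, and the difference was -0.71 ± 0.26 (limma adjusted p = 0.247; 0.0388 in the fit of all 12 arrays). Without Ra 48 h replicate 2 it was -0.56 ± 0.20, and the other CAT probe set past the filter gave -0.91. In control cells CAT rose between the times by 0.63 ± 0.18 (limma adjusted p = 0.0368).

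The comparison at 12 h asked what Ra did early. KLHL24, TXNIP, FBXO32, CCNG2 and SOD2 passed limma's test on the 6 arrays of 12 h, 5 of 9 measured genes, all higher with Ra, and FOXO3, CITED2, BCL6 and CAT did not. Across all 10050 genes 13.6% passed, and 7.34% passed as higher. The median difference of the 9 genes was 0.51 log2 units, against 0.01 over all tested genes. Since the genes were picked knowing these arrays, nothing is read from that count. The 12 h groups did not overlap for 7 of the 9 genes, against 35.3% of all genes. Same-numbered samples at 12 h deviated together, and in a fit blocked on those numbers the same 5 genes passed, where 23.4% of all genes did. In a fit of all 12 arrays, which shares its spread with the more variable 48 h arrays, 0 of the 8 genes other than KLHL24 passed, where 0.0299% of all genes did.

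Of the other 12 h calls, that of CCNG2 held when any 1 of the 6 arrays was left out. The TXNIP call was lost without Ra replicate 2 (limma adjusted p = 0.0581), control replicate 1 (0.0606) or control replicate 2 (0.0625). The FBXO32 call was lost without Ra replicate 1 (0.0672), control replicate 2 (0.0581) or control replicate 3 (0.0564). The SOD2 call was lost without Ra replicate 1 (0.0950), Ra replicate 2 (0.0965), control replicate 2 (0.0798) or control replicate 3 (0.0775), and CITED2 passed without Ra replicate 3 (0.0230). TXNIP, FBXO32, SOD2 and CITED2 kept their direction in these fits. With all 12 arrays weighted by group, SOD2 did not pass (limma adjusted p = 0.137) and CAT did (0.0467), where 1793 of the 10050 genes passed.

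**Figure D3:**
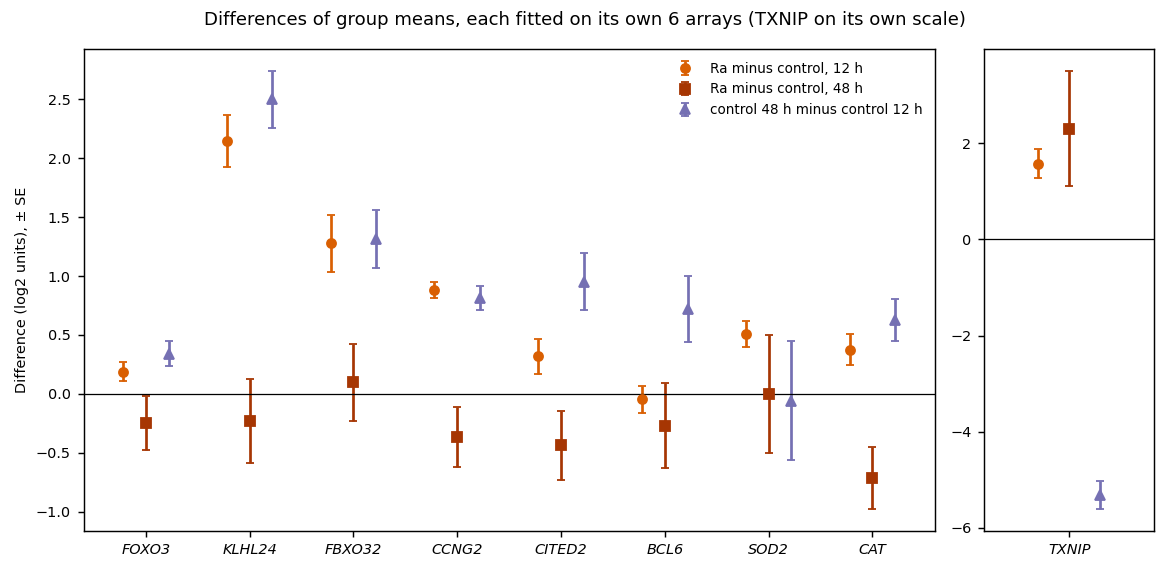
Differences of group means in log2 units with their SE for the 9 measured genes, each fitted on the 6 arrays compared, with TXNIP on a scale of its own. Circles are Ra minus control at 12 h, squares Ra minus control at 48 h and triangles control 48 h minus control 12 h. KLHL24, FBXO32 and CCNG2 show circles and triangles above 0, both taken against the same control 12 h arrays, and squares near or under 0, while TXNIP shows 1.58, 2.31 and -5.32.

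The comparison at 48 h asked what Ra did late, and none of the 9 genes passed. Limma called 0 of 9 on the 6 arrays of 48 h, where 0% of all genes passed. Before adjustment, 1748 of the 10050 genes had a p under 0.05, with 1 of the 9, CAT, among them. In the fit of all 12 arrays 1 of the 9 passed, again CAT, against 12.6% of all genes. CAT was also the 1 gene of the 9 whose 48 h groups did not overlap, against 24.0% of all genes. The median of all genes at 48 h lay 0.20 log2 units lower in Ra cells, and at 0.01 without Ra 48 h replicate 2. TXNIP and FBXO32 had means above 0, and the other 7 genes had means below it.

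The effect of Ra at 48 h minus its effect at 12 h was fitted on all 12 arrays. It was negative for every measured gene except TXNIP, and for KLHL24 it was -2.38 ± 0.44 log2 units (SE). CCNG2 gave -1.25 ± 0.26 (limma adjusted p = 0.0774), FBXO32 gave -1.18 ± 0.42 (0.170), CAT gave -1.09 ± 0.28 (0.108) and TXNIP gave 0.73 ± 1.43 (0.819). Limma called 0 of 9, against 0.0199% of all genes, with 4 of the 9 and 1933 of all genes at an unadjusted p under 0.05. Without Ra 48 h replicate 2, CCNG2 gave -0.99 and passed (limma adjusted p = 0.0339), where 3.18% of all genes did. In that fit KLHL24 gave -2.08, FBXO32 -0.95, CAT -0.94 and TXNIP 1.03. CCNG2 also passed without Ra 48 h replicate 1 (limma adjusted p = 0.0120), as did FBXO32 (0.0288) and CAT (0.0210). There 1041 of the 10050 genes passed, 991 of them lower, and the median over all genes was -0.33. Without control 48 h replicate 3 CCNG2 passed (0.0268), where 572 of all genes did. CCNG2 passed in 3 of the 12 fits with 1 array left out. With all 12 arrays the median difference of the effects over all genes was -0.19, and it was 0.02 without Ra 48 h replicate 2.

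The change with time in vehicle cells compared control cells at 48 h with control cells at 12 h, and it shares its control arrays with the comparisons above. KLHL24, FBXO32, CITED2, CCNG2, CAT and FOXO3 were higher at 48 h and TXNIP was lower, so that 7 of 9 passed limma's test. Of all genes 33.2% passed, and 16.6% as higher. BCL6 was 0.72 ± 0.28 log2 units higher without passing (SE, adjusted p = 0.0905), and SOD2 differed by -0.06 ± 0.51. The 48 h and 12 h control groups did not overlap for 8 of the 9 genes, against 50.8% of all genes. Dropping 1 control array at a time, 4 to 7 of the 9 passed, and TXNIP, FBXO32 and CCNG2 passed each time.

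In Ra cells, the change between 48 h and 12 h called 0 of 9 genes, against 0% of all genes. Before adjustment, 843 of all genes had a p under 0.05, and 2 of the 9, TXNIP and SOD2. The groups did not overlap for TXNIP, CCNG2, BCL6, SOD2 and CAT, 5 of the 9, against 19.5% of all genes. BCL6 was 0.50 ± 0.26 log2 units higher at 48 h (SE). CCNG2, SOD2 and CAT had lower means, with differences of -0.43 ± 0.23, -0.57 ± 0.21 and -0.46 ± 0.22. Without Ra 48 h replicate 2, BCL6 gave 0.66, CCNG2 -0.18, SOD2 -0.59, CAT -0.31 and TXNIP -4.29.

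The wider pathway was read from lists of genes with known ties to FOXO, drawn up with earlier results of these arrays known. Of 38 measured other genes that FOXO factors are known to induce, 12 rose and 2 fell in Ra cells at 12 h. Their median difference was 0.12 log2 units, against 0.01 over all tested genes. Of all tested genes 13.6% passed, and 7.34% passed as higher. ULK1, a kinase that starts autophagy, rose by 0.97 ± 0.20 (SE, limma adjusted p = 0.0232), reading 5.49, 5.44 and 5.51 in Ra cells and 4.06, 4.62 and 4.84 in control cells, where the background model sets the level. GABARAPL1, a protein of the autophagosome membrane, rose by 0.91 ± 0.11 (0.00652), reading 8.64, 8.68 and 8.93 in Ra cells and 7.95, 7.78 and 7.80 in control cells. HBP1, a repressor of the cell cycle, rose by 0.85 ± 0.12 (0.00844). PA2G4 and SESN2 were the 2 that fell. In the fit of all 12 arrays 0 of the 38 passed at 12 h.

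Genes that FOXO factors are known to repress went both ways at 12 h, with 2 of 7 higher and 1 lower. Across all genes 13.6% passed. CCND2, a D-type cyclin, fell by 1.37 with an SE of 0.15 (limma adjusted p = 0.00570), reading 8.57, 8.10 and 8.62 log2 units in Ra cells, against 9.66, 9.80 and 9.95 in control cells. CITED4, a relative of CITED2, rose by 1.01 ± 0.20 (0.0222), and the integrin chain ITGB1 rose by 0.20 ± 0.05 (0.0425). Of 15 measured genes of insulin and PI3 kinase signalling 1 rose and 1 fell, near that share of all genes. The receptor IGF1R rose by 0.90 ± 0.09 (limma adjusted p = 0.00556), with 8.19, 8.28 and 8.14 in Ra cells and 7.26, 7.32 and 7.34 in control cells. The FOXO-phosphorylating kinase SGK1 fell by 0.48 with an SE of 0.13 (0.0448).

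Among 33 enzymes and proteins that modify or bind FOXO, 2 rose and 2 fell with Ra at 12 h. The deacetylase SIRT1, which is also on the list of induced genes, rose by 0.47 ± 0.09 log2 units (SE, limma adjusted p = 0.0204). The arginine methyltransferase PRMT1 fell by 0.50 with an SE of 0.13 (0.0423) and the deubiquitinase USP7 fell by 0.47 with an SE of 0.11 (0.0342). Of 17 antioxidant genes 3 rose and 2 fell, led by thioredoxin reductase TXNRD1 at 0.53 ± 0.11 (0.0254), glutaredoxin GLRX at 0.47 ± 0.09 (0.0217) and GLRX2 at -0.33 ± 0.07 (0.0227). ARRDC3, an arrestin-domain relative of TXNIP, was the 1 of 5 measured genes of its list that passed, and it rose by 0.94 ± 0.13 (0.00906). Across these lists the share passing can be set beside the 13.6% of all genes.

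**Figure D4:**
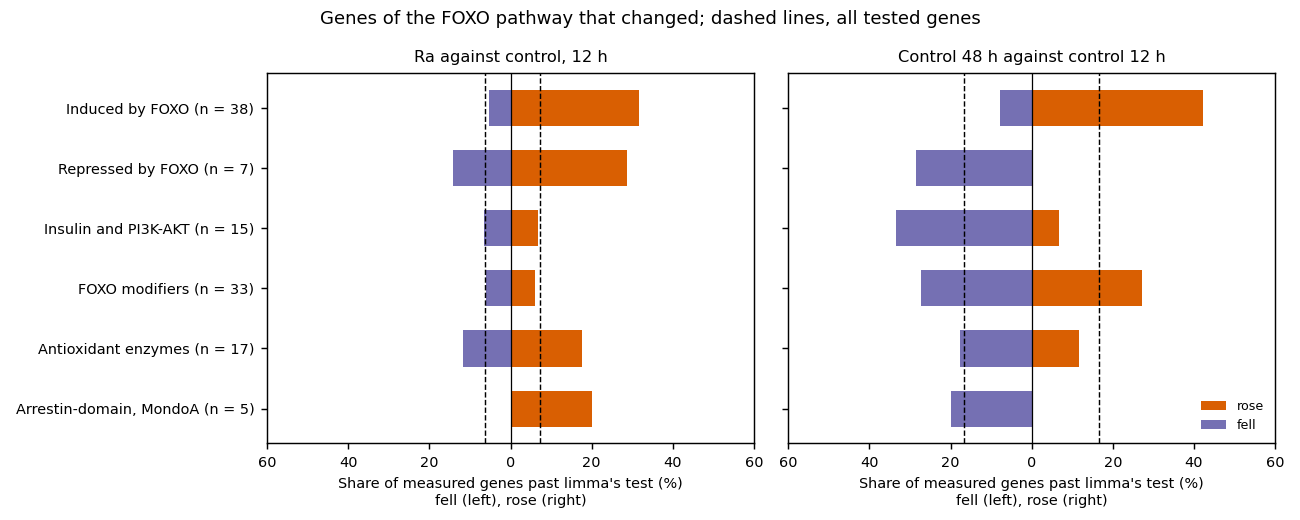
Share of the measured genes of each list that passed limma's test, with rises to the right and falls to the left, for Ra against control at 12 h (left panel) and for control 48 h against control 12 h (right panel). Dashed lines mark the shares of all tested genes that rose and fell. The induced list stands at 12 rises and 2 falls of 38 genes at 12 h and at 16 rises and 3 falls in control cells with time.

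The same lists in control cells, 48 h against 12 h, held larger changes, beside the 33.2% of all genes that passed. Of the 38 induced genes 16 rose and 3 fell, with GADD45A, a growth arrest gene, at 2.19 ± 0.20 log2 units (SE, limma adjusted p = 0.00221). SESN2, a stress-induced inhibitor of mTORC1, rose by 2.17 ± 0.14 (0.00107) and MXI1, a rival of MYC, by 1.27 ± 0.25 (0.0119). Of the 7 repressed genes 2 fell, the cyclin CCND1 at -2.26 ± 0.40 (0.00860) and the differentiation inhibitor ID1 at -1.92 ± 0.41 (0.0148). Of the 15 insulin pathway genes 1 rose, the AKT-binding pseudokinase TRIB3 at 1.89 ± 0.15 (0.00168), and 5 fell, led by SGK1 at -2.07 ± 0.26 (0.00368) and AKT1 at -1.07 ± 0.17 (0.00633).

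Of the 33 FOXO modifiers and binding proteins 9 rose and 9 fell with time in control cells. SKP2, a ubiquitin ligase subunit that marks FOXO1 for breakdown, fell by 2.73 with an SE of 0.33 log2 units (limma adjusted p = 0.00334). The acetyltransferase KAT2B rose by 1.22 ± 0.39 (0.0493) and the sugar transferase OGT by 1.17 ± 0.20 (0.00749). Antioxidant genes gave 2 rises and 3 falls of 17, with GPX3 at 0.92 ± 0.13 (0.00448), PRDX1 at -0.57 ± 0.18 (0.0459) and thioredoxin TXN, the partner of TXNIP, at -0.51 ± 0.08 (0.00541). MLXIP, which encodes the glucose-sensing TXNIP activator MondoA, fell by 1.03 with an SE of 0.23 (0.0164), with 6.28, 7.10 and 6.58 in control cells at 48 h and 7.58, 7.58 and 7.90 at 12 h. It read 7.54, 7.03 and 7.72 in Ra cells at 48 h, and its difference from control cells there, 0.78 ± 0.33, did not pass (0.276).

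With Ra at 48 h, in the difference of the 2 effects and in Ra cells with time, limma called 0 genes of any of these lists on the main arrays. In the fit of all 12 arrays at 48 h it called 7 of the 38 induced genes, 2 of the 7 repressed genes, 3 of the 15 insulin pathway genes, 5 of the 33 modifiers and 1 of the 17 antioxidant genes, beside 12.6% of all genes. GABARAPL1 differed by -0.73 ± 0.34 log2 units at 48 h (SE, adjusted p = 0.300) and CCND2 by -1.78 ± 0.44 (adjusted p = 0.193; 0.0144 in the fit of all 12 arrays). CCND2 means were lower in Ra cells at both times.

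The genes whose profile lay nearest to KLHL24 were sought over the 12 arrays, by root mean square distance after each gene was centred on its mean in control cells at 12 h. The nearest were NATD1 at 0.395 log2 units, CREBRF at 0.429 and SULT1C2 at 0.459. NATD1 averaged 6.92 log2 units in Ra cells and 5.23 in control cells at 12 h, and at 48 h it averaged 6.97 in Ra cells and 7.92 in control cells. Of the other 8 measured target and factor genes, FBXO32 was the nearest to KLHL24, at 0.924, and TXNIP the farthest, at 4.93. Nearest to TXNIP were TNFAIP6 at 1.37, NAV3 at 1.45 and SLN at 1.49, none of them as close as the neighbours of KLHL24. In control cells at 48 h TNFAIP6 averaged 3.88, NAV3 3.56 and SLN 5.07, under or near 5, where these distances depend on GCRMA's background model. The distance is not scaled to a gene's range, and TXNIP varied most. These neighbours lacked the 12 h rise of TXNIP. TNFAIP6 averaged 7.94 in Ra cells and 8.68 in control cells at 12 h, NAV3 7.26 and 7.26, and SLN 9.90 and 9.97. The level order of KLHL24 was lowest in control cells at 12 h, at 7.23 ± 0.31 log2 units (SD), with Ra cells at 12 h at 9.38 ± 0.39, Ra cells at 48 h at 9.49 ± 0.59 and control cells at 48 h at 9.73 ± 0.39, the last 3 overlapping. For TXNIP the order was control cells at 48 h at 3.49 ± 0.36, Ra cells at 48 h at 5.80 ± 2.95, control cells at 12 h at 8.81 ± 0.48 and Ra cells at 12 h at 10.39 ± 0.53, where Ra cells at 48 h overlapped both of their neighbours in this order.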

How the data were processed

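Total RNA of 12 HK-2 samples, 3 for each of 4 groups, was hybridised to Affymetrix 3′ expression arrays. Per the submitters' processing notes the authors used GCRMA, and the deposited values are log2 units. The sources used here state neither its version nor which arrays were normalized together. GCRMA shrinks low signals, so differences with a group under 5 log2 units depend on its background model. No 2 arrays were identical (0 pairs).

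Of 54675 probe sets, 41097 had 1 symbol in the platform annotation, 1801 had several and 11777 had none there. Those with 1 symbol that reached 5 log2 units on at least 3 arrays were kept, and the brightest stood for its gene. Limma 3.58.1 in R 4.3.3 fitted each comparison on its own 6 arrays with an intensity trend, and the difference of the effects on all 12, with Benjamini-Hochberg adjustment over 10050 genes at 0.05. One pooled spread is too wide for 12 h and too narrow for 48 h, so the fit of 12 arrays is an alternative. The members and lists were chosen with earlier results of these data known. Beyond the members, the text names up to 3 genes of each list with the largest differences among those past the test in a comparison, FOXO4, the nearest profiles, GAPDH and ACTB. FOXO6, PA2G4, SESN2 at 12 h, GABARAPL1, CCND2 and MLXIP at 48 h and EPCAM with time are given outside that rule and were chosen after their values were seen.

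At 12 h, deviations of same-numbered Ra and control samples correlated at 0.182, 0.421 and 0.344, so the numbers were taken as pairs there and blocked values are given. At 48 h they correlated at 0.301, -0.219 and 0.097. The number of arrays limits the precision. The code was tested on simulated data.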

Additional observations from a re-analysis of the deposited data

How the results depend on the processing

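The counts of the 9 measured genes past limma's test moved with these alternatives. At 12 h, 2 passed with no filter on low values, KLHL24 and CCNG2, and 1 in the fit of all 12 arrays, KLHL24. With 1 array left out, 2 to 6 passed. With weights by group 5 passed, where 1793 of the 10050 genes did, with CAT (limma adjusted p = 0.0467) in place of SOD2 (0.137). At 48 h, 1 passed in the fit of all 12 arrays and 0 with any array left out. For the difference of the effects, 1 passed with a filter at 7 log2 units, KLHL24. The same 3, KLHL24, CCNG2 and CAT, passed after quantile normalization and after centring arrays on their median, and 0 to 4 with 1 array left out. For control cells with time, 4 passed with no filter, where 2091 of 19775 genes did, and 4 to 7 with 1 array left out. With probe sets averaged per gene 4 passed, where 3323 of the 10050 genes did, and the calls of FBXO32, CITED2 and FOXO3 were lost. For Ra cells with time, 1 passed with the replicate block, TXNIP, where 2.34% of all genes did, and 0 to 1 with 1 array left out. Same-numbered TXNIP arrays changed unequally there, from 10.02 to 3.19, from 10.15 to 5.21 and from 10.99 to 9.00 log2 units. That blocked call is therefore not used as support for a fall. The replicate numbers were not taken as pairs outside 12 h, and the labels do not state a pairing. With the block, the call of FOXO3 in control cells with time was lost (limma adjusted p = 0.103).

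Some directions turned, in each case without the difference passing the test. At 48 h FBXO32 was -0.21 log2 units when its probe sets were averaged, SOD2 was 0.24 after quantile normalization and 0.25 after centring, and after centring FOXO3 was 0.0028 and KLHL24 0.019. For the difference of the effects BCL6 was 0.077 after quantile normalization and 0.043 after centring. With 1 array left out, BCL6 ranged from -0.15 to 0.022 at 12 h, and at 48 h BCL6 ranged from -0.52 to 0.043, FBXO32 from -0.22 to 0.33, KLHL24 from -0.52 to 0.067 and SOD2 from -0.59 to 0.53. The difference of the effects then ranged from -0.47 to 0.090 for BCL6, from -1.09 to 0.028 for SOD2 and from -0.87 to 2.03 for TXNIP.

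Over all 10050 genes, the 1366 calls at 12 h became 506 with no filter (19775 genes tested), 904 without probe sets of types x and s (7245 tested), 3 when all 12 arrays were fitted, 2351 with the replicate block, and 293 to 1388 with 1 array left out, fewest without Ra replicate 2. The 0 calls at 48 h became 307 with the filter at 7 log2 units, 641 after quantile normalization (317 higher and 324 lower), 714 after centring (388 higher and 326 lower), 1262 when all 12 arrays were fitted, 131 with the block, and 0 to 71 with 1 array left out. The 2 calls for the difference of the effects, both lower, became 5 with no filter, 43 with the filter at 7 log2 units, 7 with weights by group, 36 with the block, 944 after quantile normalization (446 higher and 498 lower), 856 after centring (420 higher and 436 lower), and 1 to 1041 with 1 array left out, most without Ra 48 h replicate 1. The 3334 calls in control cells with time became 2091 with no filter and 1955 when all 12 arrays were fitted, and 1429 to 4583 with 1 array left out. In Ra cells with time the 0 calls became 2 with no filter, 41 after centring, 235 with the block and up to 4 with 1 array left out. TXNIP could not be recomputed without probe sets of types x and s, since all of its own are of type s. The cause of these shifts was not tested.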
